A study of Mus musculus with 12 samples.

Results

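The genes described here are the 10 core genes of the NF-kB system, chosen by symbol from the 56748 genes of the deposited table. They are the 5 transcription factor subunits Nfkb1, Nfkb2, Rel, Rela and Relb, the 3 inhibitors Nfkbia, Nfkbib and Nfkbie, the feedback enzyme Tnfaip3, and the nuclear regulator Bcl3. Transcripts were sequenced from Ba/F3, a mouse cell line labelled as pro-B, in 12 libraries. Every library carried NRAS G12D, an activated RAS, and every library had been deprived of IL-3, the cytokine on which Ba/F3 cells normally depend. The 4 groups of 3 libraries differed in the construct expressed. They were ETV6 I209S P214L followed by an IRES and ZsGreen (called I209S P214L here), ETV6 P214L followed by the same (P214L), unmutated ETV6 followed by the same (ETV6 WT), and the fluorescent protein ZsGreen alone (ZsGreen). On day 0 the cells were moved by sorting into medium that lacked IL-3; they were given fresh medium on day 2 and harvested on day 3. The study asked whether the second change, I209S, which breaks an export signal made by P214L, brings the cells back to the transcript pattern of ETV6 WT. The labels name neither the promoter that drives the constructs nor whether the libraries of a group came from separate cultures, so p-values measure the spread between these libraries, which may be technical. All groups are 1 cell line, and the labels give no batch.

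NF-kB proteins bind DNA as pairs of Rel-family subunits. In resting cells IkB proteins hold the pairs in the cytoplasm, and signals through the IKK kinase complex lead to IkB breakdown and entry of the pairs into the nucleus. Nfkbia and Tnfaip3 are themselves classical NF-kB target genes and switch the pathway off again, so their transcripts are widely read as a record of NF-kB activity, although other factors act on them too. ETV6 is an ETS-family repressor of blood cells, and NF-kB is known in B-lineage and myeloid cells for its role in survival and inflammation.

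Promoter sequences of the members are shown because feedback genes of this pathway carry NF-kB sites close to their start sites. RefSeq promoter entries (build GRCm38.p6, older than the build of the gene positions below) were found for 8 of the 10 members, with 11 start sites among them; Nfkb1 and Relb had no entry. The 250 bases before each start were searched on both strands for a kB-type motif, GGG and TTCC with any 3 bases between them, and for CCGGAAG, an ETS-type motif. The 120 bases before the start are printed for Nfkbia (chr12:55492648-55492767 on the minus strand), the first listed start of Tnfaip3 (chr10:19015411-19015530 on the minus strand), Rel (chr11:23770970-23771089 on the minus strand), Nfkbie (chr17:45555580-45555699 on the plus strand) and Rela (chr19:5637421-5637540 on the plus strand). Capitals mark motif matches, and all sequences read 5′ to 3′ toward the start.
Nfkbia: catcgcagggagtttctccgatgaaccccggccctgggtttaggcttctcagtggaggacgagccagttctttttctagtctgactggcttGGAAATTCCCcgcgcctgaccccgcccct
Tnfaip3: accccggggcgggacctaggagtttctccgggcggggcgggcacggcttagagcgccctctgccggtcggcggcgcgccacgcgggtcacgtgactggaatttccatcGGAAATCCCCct
Rel: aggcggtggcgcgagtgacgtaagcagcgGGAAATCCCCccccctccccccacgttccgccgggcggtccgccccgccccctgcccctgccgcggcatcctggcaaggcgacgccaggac
Nfkbie: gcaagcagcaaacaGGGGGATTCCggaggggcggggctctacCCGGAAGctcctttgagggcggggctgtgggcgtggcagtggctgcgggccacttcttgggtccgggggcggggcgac
Rela: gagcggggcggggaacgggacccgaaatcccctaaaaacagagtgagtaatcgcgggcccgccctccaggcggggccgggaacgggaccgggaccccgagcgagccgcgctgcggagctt

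The Nfkbia window held the kB-type match GGAAATTCCC from 29 to 20 bases before the start. Tnfaip3 and Rel held the same letters, GGAAATCCCC, the first from 12 to 3 and the second from 91 to 82 bases before the start. Nfkbie held GGGGGATTCC, 106 to 97 bases before its start, and was the only member window with an ETS-type match, 78 to 72 bases before it. Nfkb2 matched at all of its 3 listed starts, and the other Tnfaip3 start held GGGTTATTCC. In all, 8 of the 11 member windows had a kB-type match, against 4.65% of the 32851 promoter windows of the genome. Of the matched windows, 3 belonged to Nfkb2 and 2 to Tnfaip3. The ETS-type letters were in 6.91% of the genome's windows. By gene, 5 of the 8 members had a kB-type match in their windows, a count for which no genome share per gene was computed. Rela, Nfkbib and Bcl3 had no match in these windows. A match is a description of the letters, and binding was not measured.

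Libraries held 14301683 to 18607595 counts, and 14794 genes passed the filter on low counts. Etv6, the expressed gene, had 88.6 to 112.2 CPM (library-scaled counts relative to the library total) in I209S P214L, 98.4 to 107.7 in P214L, 101.6 to 121.9 in ETV6 WT and 77.9 to 87.4 in ZsGreen. It was called higher than in ZsGreen in all 3 (adjusted p = 0.0217, 0.0433 and 0.00164 in that order), but the counts do not separate construct from endogenous transcripts. On principal components of all tested genes, ZsGreen library 1 stood apart from the other 11 on the second component, which held 14.2% of the variance, and the members' fold changes and counts of calls were also computed without it. The labelled cell type was only partly visible. Of 16 pro-B and B lineage markers 3 passed the filter, 6, among them Rag1 and Dntt, had no count in any library, and the summed level was 7.39 to 17.2 CPM.

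Of the 10 members, 9 passed the filter, and Bcl3 did not. Throughout, a gene is called when its adjusted p is under 0.05 in edgeR's quasi-likelihood test with Benjamini-Hochberg adjustment over all tested genes. In the test of any difference among the 4 groups, 5 of the 9 tested members were called, where 41.0% of all tested genes were. They were Nfkbia (adjusted p = 1.61e-08), Nfkb1 (8.16e-05), Rela (0.000138), Rel (0.000541) and Tnfaip3 (0.00342). These 5 members followed 2 opposite patterns. Rel and Rela were higher in I209S P214L and ETV6 WT than in P214L and ZsGreen, and Nfkb1, Nfkbia and Tnfaip3 were lower there. Nfkbib, Nfkb2, Nfkbie and Relb were not called, with adjusted p of 0.1, 0.136, 0.544 and 0.615.

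**Figure D1:**
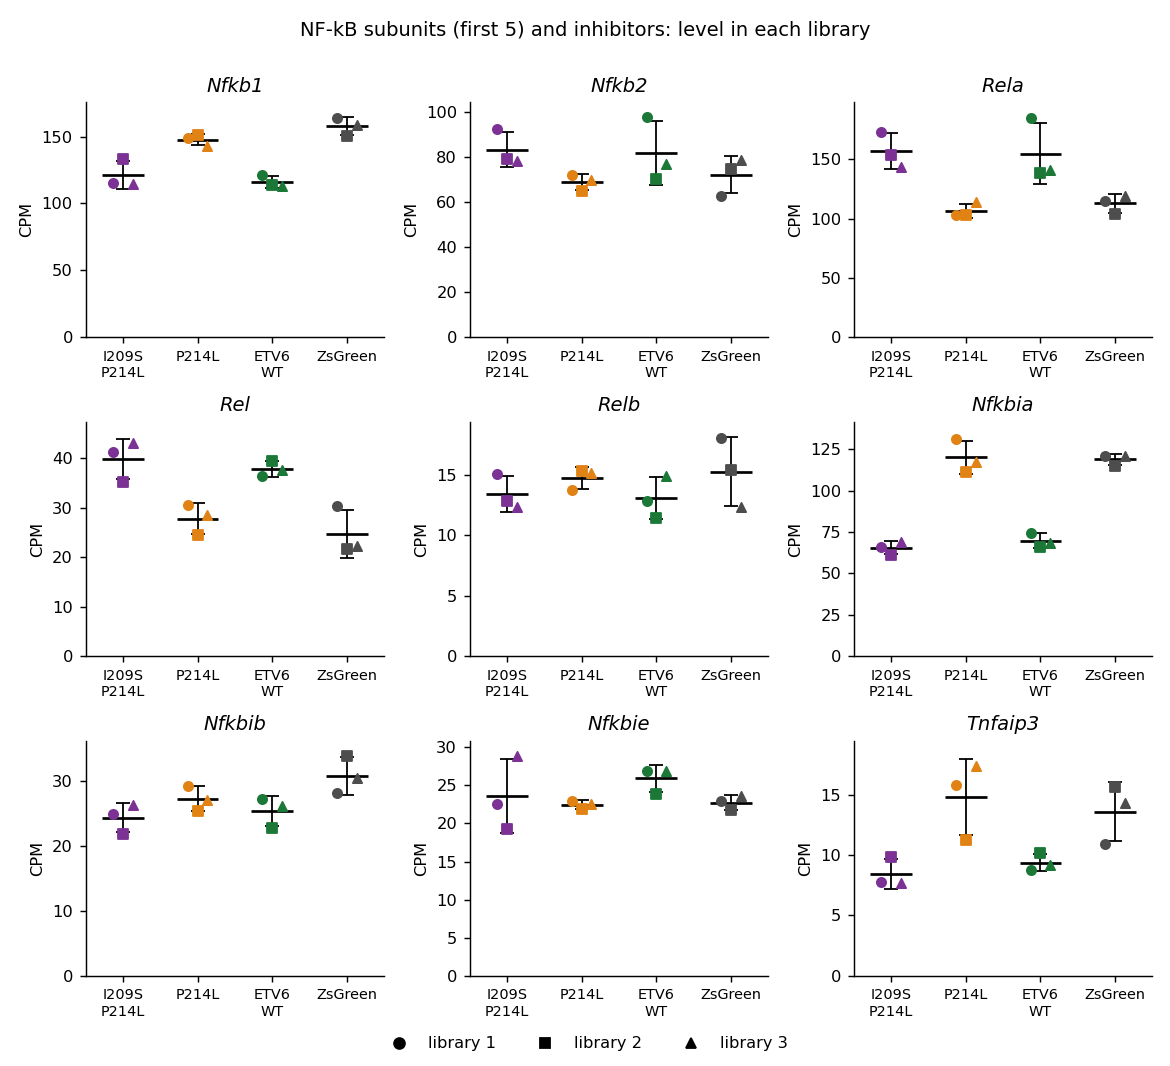
Each panel plots 1 member's level in CPM (vertical axis, from 0) in the 3 libraries of each construct (horizontal axis); symbols mark library 1, 2 or 3, horizontal lines the mean and bars the SD (n = 3). Nfkbia lies between 61.4 and 74.6 CPM in I209S P214L and ETV6 WT and between 111.5 and 131.3 CPM in P214L and ZsGreen, while Relb and Nfkbie overlap across most constructs.

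Nfkbia (ENSMUSG00000021025; mm39, chromosome 12, 55536195 to 55539432, minus strand) encodes IkB-alpha, the main inhibitor of Rela-containing pairs. Its level was 66.0, 61.4 and 69.1 CPM in the I209S P214L libraries, 131.3, 111.5 and 117.2 CPM in the P214L libraries, 74.6, 65.9 and 68.4 CPM in the ETV6 WT libraries, and 120.7, 115.0 and 120.9 CPM in the ZsGreen libraries. All 6 libraries of I209S P214L and ETV6 WT lay below all 6 of P214L and ZsGreen, with no overlap. Nfkbia fell by 0.86 on the log2 scale (SE 0.0789) in I209S P214L against ZsGreen, with an adjusted p of 9.99e-08. In ETV6 WT against ZsGreen it fell by 0.77 (SE 0.0785, adjusted p = 4.27e-07). P214L and ZsGreen differed by 0.01 (95% interval -0.15 to 0.18), and I209S P214L was below P214L (log2 fold change -0.87, SE 0.079, adjusted p = 1.23e-07). In P214L against ETV6 WT Nfkbia was higher by 0.78 (SE 0.0786, adjusted p = 5.48e-07). In bulk RNA, a lower level per cell and fewer cells with the transcript cannot be told apart.

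Tnfaip3 (ENSMUSG00000019850; chromosome 10, 18876658 to 18891405, minus strand) encodes A20, a ubiquitin-editing enzyme that ends signalling to IKK. It was measured at 7.7, 9.8 and 7.7 CPM in the I209S P214L libraries, 15.8, 11.3 and 17.4 CPM in the P214L libraries, 8.8, 10.2 and 9.1 CPM in the ETV6 WT libraries, and 10.9, 15.7 and 14.3 CPM in the ZsGreen libraries. The I209S P214L and ETV6 WT libraries were all below those of P214L and ZsGreen, though ETV6 WT library 2 came close to ZsGreen library 1. Tnfaip3 fell in I209S P214L against ZsGreen (log2 fold change -0.70, SE 0.191, adjusted p = 0.00679) and against P214L (-0.82, SE 0.191, adjusted p = 0.0027). In ETV6 WT against ZsGreen it was called lower at -0.54 (SE 0.189, adjusted p = 0.0325), a call that was lost when any of 4 libraries was left out: ZsGreen 2 (adjusted p = 0.118), ZsGreen 3 (0.0751), ETV6 WT 1 (0.0897) or ETV6 WT 3 (0.0756). It was also lost without both ETV6 WT 1 and I209S P214L 1 (0.0795). In P214L against ETV6 WT it was called higher at 0.66 (SE 0.189, adjusted p = 0.0131), and this call was lost without P214L library 1 (0.0515) or P214L library 3 (0.0844). P214L against ZsGreen gave 0.12 with a 95% interval of -0.27 to 0.51.

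Nfkb1 (ENSMUSG00000028163; chromosome 3, 135290416 to 135397308, minus strand) encodes a precursor that is cut to the p50 subunit, the usual partner of Rela; uncut, it acts as an inhibitor. Its level was 115.6, 133.4 and 114.8 CPM in the I209S P214L libraries, 149.2, 150.9 and 143.1 CPM in the P214L libraries, 121.1, 114.1 and 113.3 CPM in the ETV6 WT libraries, and 164.0, 150.8 and 159.1 CPM in the ZsGreen libraries. The 6 libraries of I209S P214L and ETV6 WT were again the 6 lowest. The fall against ZsGreen was -0.38 in I209S P214L (SE 0.0711, adjusted p = 0.000279) and -0.44 in ETV6 WT (SE 0.0711, adjusted p = 7.28e-05), in log2 units. It was smaller than the fall of Nfkbia, which had the same direction in these comparisons; the difference between both genes was not tested. Between I209S P214L and P214L the log2 fold change of Nfkb1 was -0.29 (SE 0.0712, adjusted p = 0.00445), and between P214L and ETV6 WT it was 0.35 (SE 0.0712, adjusted p = 0.00109).

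Rela (ENSMUSG00000024927; chromosome 19, 5687511 to 5698158, plus strand) encodes p65, the activating subunit of the classical pair. It stood at 173.5, 154.0 and 143.6 CPM in the I209S P214L libraries, 103.3, 103.3 and 113.6 CPM in the P214L libraries, 184.5, 138.7 and 141.1 CPM in the ETV6 WT libraries, and 115.2, 104.0 and 119.0 CPM in the ZsGreen libraries. The order was the reverse of that of Nfkbia, with every I209S P214L and ETV6 WT library above every P214L and ZsGreen library. Rela rose in I209S P214L against ZsGreen (log2 fold change 0.48, SE 0.101, adjusted p = 0.000929) and against P214L (0.56, SE 0.102, adjusted p = 0.00032). It also rose in ETV6 WT against ZsGreen (0.46, SE 0.101, adjusted p = 0.00151), and it was lower in P214L against ETV6 WT (-0.54, SE 0.102, adjusted p = 0.000553). The first libraries of I209S P214L and ETV6 WT were the highest of their groups, and across all genes their deviations from the group means had a correlation of 0.528. Without both, the log2 fold changes of Rela against ZsGreen were 0.40 in I209S P214L and 0.31 in ETV6 WT, with adjusted p of 0.000185 and 0.00211.

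Rel (ENSMUSG00000020275; chromosome 11, 23686847 to 23720970, minus strand) encodes c-Rel, a subunit found mainly in blood cells. Its level was 41.2, 35.3 and 43.0 CPM in the I209S P214L libraries, 30.5, 24.5 and 28.4 CPM in the P214L libraries, 36.4, 39.5 and 37.5 CPM in the ETV6 WT libraries, and 30.3, 21.6 and 22.2 CPM in the ZsGreen libraries. The lowest I209S P214L library was above the highest P214L and ZsGreen libraries, and ZsGreen library 1 was well above the rest of its group. Rel rose by 0.69 on the log2 scale in I209S P214L against ZsGreen (SE 0.132, adjusted p = 0.000362) and by 0.61 in ETV6 WT against ZsGreen (SE 0.132, adjusted p = 0.00114). In I209S P214L against P214L it rose by 0.52 (SE 0.132, adjusted p = 0.00484). In P214L against ETV6 WT its log2 fold change was -0.45 (SE 0.131, adjusted p = 0.0155), and the call was lost without ETV6 WT library 2 (adjusted p = 0.0571) or P214L library 2 (0.0962). Without ZsGreen library 1 the rise in I209S P214L was 0.85 and that in ETV6 WT was 0.77.

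The remaining subunits were not called in any of the 6 comparisons. Nfkb2 (ENSMUSG00000025225; chromosome 19, 46292759 to 46300824, plus strand), whose precursor gives the p52 subunit of the alternative pathway, measured 92.4, 79.2 and 78.5 CPM in the I209S P214L libraries, 72.1, 64.9 and 69.6 CPM in the P214L libraries, 97.7, 70.3 and 77.1 CPM in the ETV6 WT libraries, and 62.9, 74.9 and 78.7 CPM in the ZsGreen libraries. All I209S P214L libraries were above all P214L libraries, while ETV6 WT overlapped with each of the others. For I209S P214L against P214L the log2 fold change was 0.28 (95% interval 0.04 to 0.51, adjusted p = 0.0701); 5 of the 21 alternative settings brought it under the threshold, among them DESeq2 at 0.0421 and the fit without ETV6 WT library 1 at 0.0268. For P214L against ETV6 WT it was -0.25 (adjusted p = 0.119), with 0.0421 without ETV6 WT library 2 and 0.0424 with no filter on low counts. Without the first libraries of both ETV6 WT and I209S P214L these values were 0.19 (adjusted p = 0.143) for I209S P214L against P214L and -0.092 (adjusted p = 0.559) for P214L against ETV6 WT. The Nfkb2 locus overlaps Psd and a long non-coding RNA on the opposite strand, with summed counts of 5901 and 2248 beside 15171 for Nfkb2. The strand setting of the counting is not known, so shared reads make its level uncertain.

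Relb (ENSMUSG00000002983; chromosome 7, 19340142 to 19363363, minus strand) encodes the main partner of p52. Its group means were 13.4 ± 1.47 CPM in I209S P214L, 14.7 ± 0.876 in P214L, 13.1 ± 1.75 in ETV6 WT and 15.3 ± 2.87 in ZsGreen (SD, n = 3 each), and libraries of all groups overlapped. Its log2 fold changes lay between -0.22 and 0.17 in the 6 comparisons. The largest of them, -0.22 in ETV6 WT against ZsGreen, had a 95% interval of -0.56 to 0.12.

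Nfkbib and Nfkbie encode IkB-beta and IkB-epsilon, the other classical inhibitors. Nfkbib (ENSMUSG00000030595; chromosome 7, 28457676 to 28466937, minus strand) had 24.98, 21.8 and 26.3 CPM in the I209S P214L libraries, 29.2, 25.4 and 27.1 CPM in the P214L libraries, 27.2, 22.8 and 26.1 CPM in the ETV6 WT libraries, and 28.1, 33.8 and 30.4 CPM in the ZsGreen libraries. ZsGreen was highest, and its libraries did not overlap with those of I209S P214L or ETV6 WT. Nfkbib was called lower in I209S P214L against ZsGreen (log2 fold change -0.34, SE 0.117, adjusted p = 0.0275). That call was lost without ZsGreen library 2 or I209S P214L library 2 (adjusted p = 0.102 in each case), with no filter on low counts (0.0667) and with only the compared groups in the fit (0.0501). In ETV6 WT against ZsGreen it was -0.28 (adjusted p = 0.0689), and 0.0331 without ZsGreen library 1. Nfkbib overlaps Sirt2 on the opposite strand, which had 14882 counts in all beside 5322 for Nfkbib, so its level is uncertain in the same way as that of Nfkb2.

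Nfkbie (ENSMUSG00000023947; chromosome 17, 45866629 to 45874095, plus strand) measured 22.6, 19.3 and 28.8 CPM in the I209S P214L libraries, 22.9, 21.9 and 22.6 CPM in the P214L libraries, 26.9, 23.9 and 27.0 CPM in the ETV6 WT libraries, and 22.9, 21.7 and 23.6 CPM in the ZsGreen libraries. The I209S P214L libraries held both the lowest and the highest of the 12. No comparison called it; the smallest adjusted p was 0.275, for P214L against ETV6 WT. Bcl3 (ENSMUSG00000053175; chromosome 7, 19542387 to 19556695, minus strand), an IkB-like protein that works in the nucleus with p50 and p52, had 1 count in I209S P214L library 3, 1 in ETV6 WT library 2 and none in the other 10 libraries. Over the 12 libraries this is 0.0101 CPM, with an exact 95% counting interval of 0.00122 to 0.0365. The absence of counts in P214L and ZsGreen allows up to 0.0643 and 0.0608 CPM (3 counts over the libraries of the group), so no comparison of Bcl3 was possible.

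**Figure D2:**
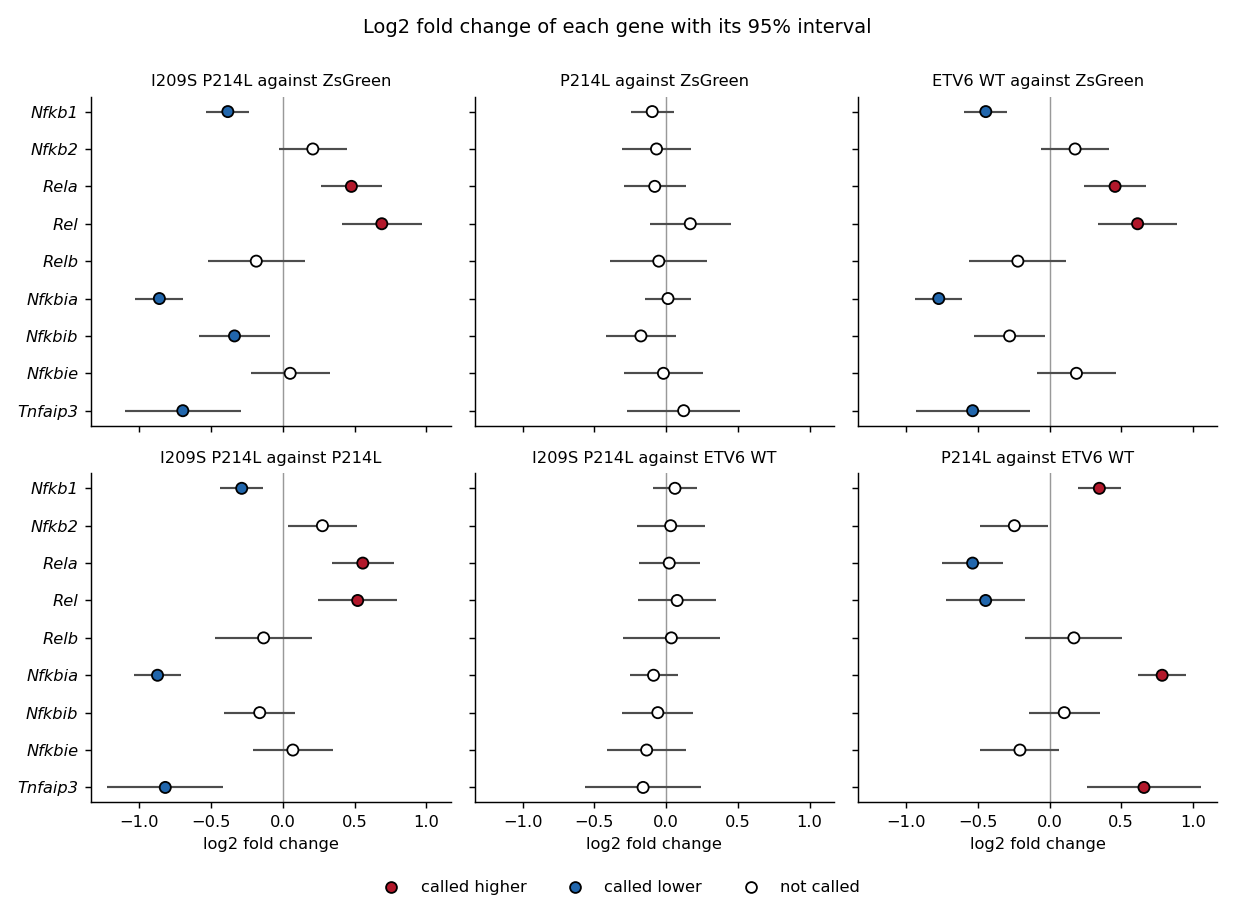
Each panel is 1 comparison, first group over second, with the log2 fold change of the 9 tested members (horizontal axis) and its 95% interval from the fit (bars); filled points were called higher (red) or lower (blue) at an adjusted p under 0.05. Rela and Rel lie right of 0 and Nfkb1, Nfkbia and Tnfaip3 left of it in I209S P214L and ETV6 WT against ZsGreen and in I209S P214L against P214L, while no point is filled in P214L against ZsGreen or I209S P214L against ETV6 WT.

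Read by comparison, I209S P214L against ZsGreen called 6 of the 9 tested members, Rel and Rela higher and Nfkb1, Nfkbia, Nfkbib and Tnfaip3 lower, where 41.5% of all tested genes were called (20.8% higher and 20.7% lower). ETV6 WT against ZsGreen called 5, Rel and Rela higher and Nfkb1, Nfkbia and Tnfaip3 lower, where 37.7% of tested genes were called (19.5% higher and 18.2% lower). P214L against ZsGreen called 0 members, where 5.08% of tested genes were called (3.47% higher and 1.61% lower); 0 had an unadjusted p under 0.05, and DESeq2 and limma-voom also called 0. The smallest unadjusted p in that comparison was 0.149, for Nfkbib, and the log2 fold changes ran from -0.18 to 0.17. These 3 comparisons share the ZsGreen libraries. The member counts are small, and the 6 and 5 calls stand beside a background in which a large share of all genes was called.

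P214L against ETV6 WT called 5 members, Nfkb1, Nfkbia and Tnfaip3 higher and Rel and Rela lower, where 29.2% of tested genes were called (14.6% in each direction). I209S P214L against P214L also called 5, Rel and Rela higher and Nfkb1, Nfkbia and Tnfaip3 lower, where 33.0% of tested genes were called (15.9% higher and 17.1% lower). I209S P214L against ETV6 WT called 0 of the 9, where 0.0338% of tested genes were called (0.0135% higher and 0.0203% lower); 0 had an unadjusted p under 0.05, and DESeq2 and limma-voom also called 0. The log2 fold changes of that comparison ran from -0.16 for Tnfaip3 (95% interval -0.57 to 0.25) to 0.08 for Rel (-0.20 to 0.35). For Nfkbia the interval was -0.25 to 0.08 and for Rela -0.19 to 0.23. Differences within these intervals are not excluded, and the 0 calls do not show that the 2 groups are equal. ETV6 WT against ZsGreen and I209S P214L against P214L share no library. Both called the same 5 members, each in the same direction; over all genes, 3881 were called in both with the same direction, 69.6% of those called in the first and 79.5% of those called in the second.

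Libraries without overlap between 2 groups were found for 6 of 9 members in I209S P214L against ZsGreen (47.8% of tested genes), 7 in ETV6 WT against ZsGreen (46.2%) and 0 in P214L against ZsGreen (25.7%). There were 6 in P214L against ETV6 WT (45.4%), 6 in I209S P214L against P214L (48.2%) and 0 in I209S P214L against ETV6 WT (8.33%).

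Levels of different members can be set side by side per length, in the deposited FPKM (fragments relative to gene length and library total). Over the 12 libraries Nfkbia averaged 57.6 and Rela 42.9 FPKM, followed by Nfkb2 at 16.6, Nfkbib at 12.3, Nfkb1 at 11.2, Nfkbie at 7.71, Rel at 4.32, Relb at 3.61 and Tnfaip3 at 1.59 FPKM. The length used for Nfkb1, 12061 bases, is the longest of the members, and its place depends on that length. Nfkbib and Nfkb1 overlapped in I209S P214L, P214L and ZsGreen but not in ETV6 WT, and Nfkb2 and Nfkbib overlapped only in ZsGreen. Relb and Rel overlapped in P214L and ZsGreen, while in I209S P214L and ETV6 WT every library had Rel above Relb.

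**Figure D3:**
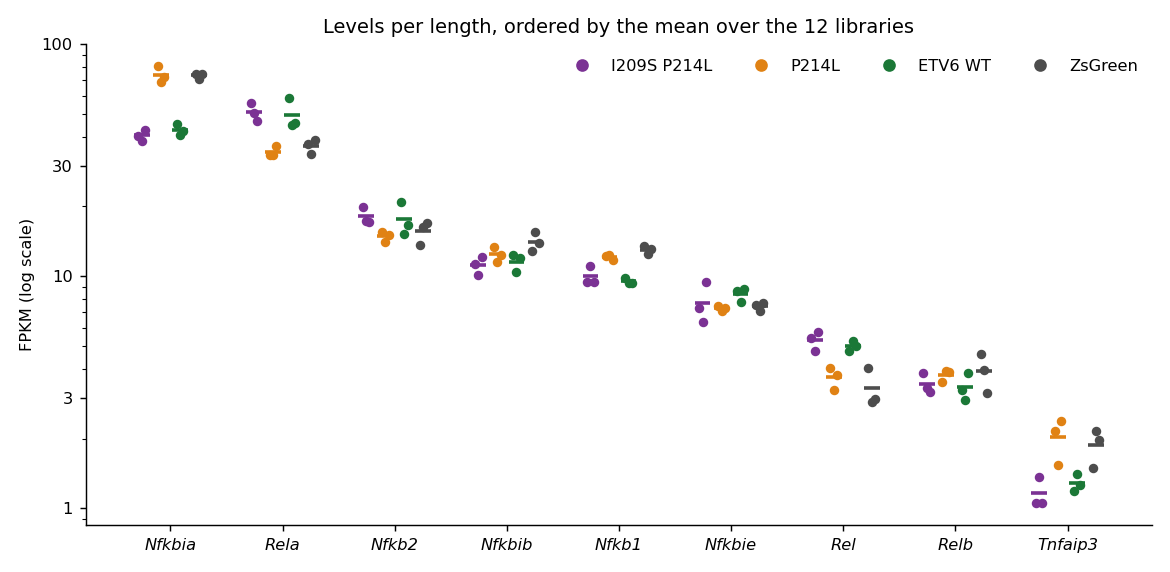
Deposited FPKM of each member (log vertical axis) in every library, with members ordered by their mean over the 12 libraries and short lines at each group's mean; Bcl3, near 0, is not drawn. Rela lies above Nfkbia in I209S P214L, and Nfkbia lies above Rela in P214L and ZsGreen.

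The top place changed between groups. In I209S P214L, Rela averaged 50.9 and Nfkbia 40.5 FPKM without overlap, and in ETV6 WT the means were 49.8 and 42.7 FPKM with overlapping libraries. In P214L, Nfkbia averaged 73.6 and Rela 34.3 FPKM, and in ZsGreen 73.4 and 36.5 FPKM, without overlap in either. The ratio of Rela to Nfkbia within a library was therefore 1.26 ± 0.151 in I209S P214L, 0.469 ± 0.0503 in P214L, 1.16 ± 0.122 in ETV6 WT and 0.497 ± 0.0212 in ZsGreen (SD, n = 3 each). The lowest library of I209S P214L and ETV6 WT had a ratio of 1.08, and the highest of P214L and ZsGreen had 0.516. Per length, Rela made up 58.0% of the summed subunit transcripts in I209S P214L, 49.9% in P214L, 58.3% in ETV6 WT and 50.4% in ZsGreen. The ratio of Nfkb1 to Rela was 0.198 ± 0.026, 0.354 ± 0.0284, 0.193 ± 0.0229 and 0.358 ± 0.0147 in the same order of groups.

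The 5 subunits together came to 87.7 ± 6.19 FPKM in I209S P214L, 68.7 ± 2.05 in P214L, 85.2 ± 10.8 in ETV6 WT and 72.3 ± 2.9 in ZsGreen. The 3 IkB inhibitors together came to 59.4 ± 4.76 FPKM in I209S P214L, 93.2 ± 7.09 in P214L, 62.7 ± 3.75 in ETV6 WT and 94.9 ± 1.35 in ZsGreen. By FPKM, subunit transcripts thus exceeded inhibitor transcripts in I209S P214L and ETV6 WT, and the reverse held in P214L and ZsGreen. Which sum is larger depends on the gene lengths used. The sums also include Nfkb2 and Nfkbib, whose levels are uncertain. These sums and ratios are descriptions of transcript levels and were not tested, and they rest mainly on Rela and Nfkbia, the most abundant of each kind.

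**Figure D4:**
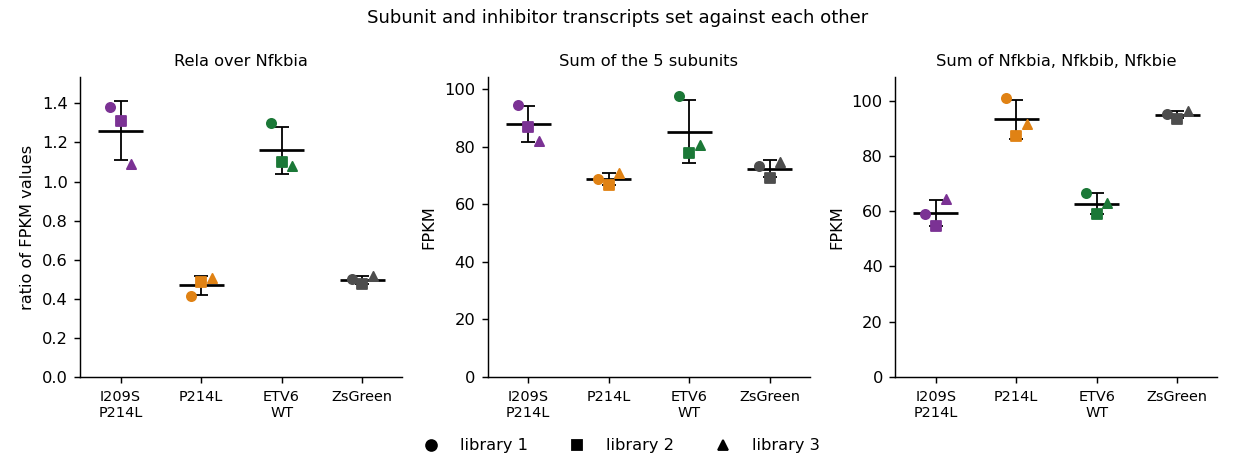
The left panel plots the ratio of Rela to Nfkbia FPKM in each library, the middle panel the summed FPKM of the 5 subunits and the right panel the summed FPKM of Nfkbia, Nfkbib and Nfkbie; lines are means and bars SD (n = 3). The ratio lies at 1.08 or higher in I209S P214L and ETV6 WT and at 0.516 or lower in P214L and ZsGreen.

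Upstream of the subunits, 30 of 31 listed genes of the IKK complex and its adaptors passed the filter. In I209S P214L against ZsGreen 10 were called higher and 3 lower, in P214L against ZsGreen 1 and 0, and in ETV6 WT against ZsGreen 11 and 2. Over all tested genes 20.8% were called higher and 20.7% lower in the first of these comparisons, 3.47% and 1.61% in the second, and 19.5% and 18.2% in the third. Ikbkg, the regulatory IKK subunit NEMO, averaged 172.5 ± 2.78 CPM in I209S P214L, 78.5 ± 2.98 in P214L, 150.5 ± 4.06 in ETV6 WT and 73.7 ± 5.94 in ZsGreen. It rose by 1.23 on the log2 scale in I209S P214L and by 1.03 in ETV6 WT against ZsGreen (adjusted p = 2.83e-10 and 3.17e-09). Map3k14, the kinase NIK of the alternative pathway, averaged 20.6 ± 3.76 CPM in I209S P214L, 5.77 ± 0.832 in P214L, 24.3 ± 2.08 in ETV6 WT and 6.45 ± 2.87 in ZsGreen, with a log2 fold change of 1.66 in I209S P214L against ZsGreen (adjusted p = 1.27e-05). Ripk1, an adaptor kinase of the TNF receptor, rose by a smaller 0.46 in that comparison (adjusted p = 2.78e-05). Irak2, an adaptor of the Toll-like and interleukin-1 receptors, was the 1 gene of the list called in P214L against ZsGreen (log2 fold change 0.66, adjusted p = 0.00388). Against ZsGreen it was also called higher in I209S P214L (0.92, adjusted p = 1.08e-05) and in ETV6 WT (0.96, adjusted p = 7.21e-06). The median log2 fold change of the list was 0.10 in I209S P214L and 0.11 in ETV6 WT against ZsGreen, where the median of all genes was 0.03 in both.

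Among 16 tested genes for other IkB-like proteins and for partners of Tnfaip3 and related deubiquitinases, I209S P214L against ZsGreen called 6 higher and 4 lower and ETV6 WT against ZsGreen 5 higher and 3 lower, where 41.5% and 37.7% of all tested genes were called. P214L against ZsGreen called 0, where 5.08% of all tested genes were called; 4 had an unadjusted p under 0.05, DESeq2 called 2 and limma-voom 0. The nuclear IkB proteins went both ways. Nfkbiz averaged 43.8 ± 8.23 CPM in I209S P214L, 15.2 ± 2.87 in P214L, 35.6 ± 2.92 in ETV6 WT and 12.99 ± 0.642 in ZsGreen, a log2 fold change of 1.75 in I209S P214L against ZsGreen (adjusted p = 4.12e-08). Nfkbid averaged 9.43 ± 1.03 CPM in I209S P214L, 21.1 ± 2.13 in P214L, 9.92 ± 0.299 in ETV6 WT and 19.4 ± 1.72 in ZsGreen, with -1.04 in the same comparison (adjusted p = 8.96e-06). Rnf11, which works with Tnfaip3, and Otud7b, a deubiquitinase that restrains the alternative pathway, rose by 1.14 and 0.66 there (adjusted p = 4.12e-08 and 1.18e-05). The list median was 0.08 in I209S P214L against ZsGreen and 0.07 in ETV6 WT against ZsGreen.

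Of 24 listed ligands and receptors that feed the pathway, 12 passed the filter, and Cd40, Cd40lg and Il1r1 had no count in any library. I209S P214L against ZsGreen called 3 higher and 4 lower, P214L against ZsGreen 1 and 0, and ETV6 WT against ZsGreen 3 and 3, where 41.5%, 5.08% and 37.7% of all tested genes were called. Ltb, the lymphotoxin-beta ligand of the alternative pathway, averaged 39.7 ± 4.89 CPM in I209S P214L, 180.4 ± 9.84 in P214L, 44.9 ± 8.02 in ETV6 WT and 178.0 ± 3.45 in ZsGreen. It fell against ZsGreen, with a log2 fold change of -2.16 in I209S P214L and -1.99 in ETV6 WT (adjusted p = 4.54e-11 and 1.47e-10). Tnf, the classical inducer, averaged 4.72 ± 0.557 CPM in I209S P214L, 10.5 ± 1.62 in P214L, 5.25 ± 0.788 in ETV6 WT and 11.3 ± 1.35 in ZsGreen, and fell against ZsGreen with log2 fold changes of -1.26 in I209S P214L and -1.11 in ETV6 WT (adjusted p = 6.16e-05 and 0.000236). The receptor Tlr2 was lower in I209S P214L than in P214L by a log2 fold change of -1.64 (adjusted p = 5.5e-05), and Tlr4 by -1.14 (adjusted p = 0.00167). Against ZsGreen, Tlr4 was not called in I209S P214L (-0.60, adjusted p = 0.0652) or in ETV6 WT (-0.63, adjusted p = 0.0553). The list median against ZsGreen was -0.01 in I209S P214L, 0.24 in P214L and 0.08 in ETV6 WT.

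Of 34 listed target genes of NF-kB, 21 passed the filter; Nfkbia and Tnfaip3, also targets, are counted with the members. I209S P214L against ZsGreen called 3 higher and 9 lower, P214L against ZsGreen 3 and 2, and ETV6 WT against ZsGreen 3 and 9. The shares of all tested genes called higher and lower were 20.8% and 20.7%, 3.47% and 1.61%, and 19.5% and 18.2% in the same order. I209S P214L against P214L called 3 higher and 10 lower, where 15.9% and 17.1% of all tested genes were, and P214L against ETV6 WT 10 higher and 3 lower, where 14.6% were in each direction. Mmp9, a secreted protease, averaged 4.24 ± 0.961 CPM in I209S P214L, 30.2 ± 2.4 in P214L, 6.10 ± 0.314 in ETV6 WT and 27.3 ± 2.02 in ZsGreen, and its log2 fold change in I209S P214L against P214L was -2.84 (adjusted p = 2.83e-10). Sod2, a mitochondrial antioxidant enzyme, had -0.56 in that comparison (adjusted p = 4.58e-05). Icam1, an adhesion molecule, averaged 17.9 ± 0.733 CPM in I209S P214L, 41.7 ± 4.02 in P214L, 19.1 ± 0.675 in ETV6 WT and 28.6 ± 3.89 in ZsGreen. It was called higher in P214L against ZsGreen (log2 fold change 0.54, adjusted p = 0.00906), a comparison in which Nfkbia and Tnfaip3 were not called. Nfkbiz, which this list shares with the list of IkB-like proteins, was called higher against ZsGreen in I209S P214L and in ETV6 WT. In P214L against ZsGreen Nfkbiz was not called (log2 fold change 0.22, adjusted p = 0.502). The list median was -0.42 in I209S P214L, 0.18 in P214L and -0.20 in ETV6 WT against ZsGreen. In I209S P214L against ETV6 WT none of the 4 lists had a called gene by edgeR or limma-voom; unadjusted p was under 0.05 for 1 IKK or adaptor gene, 1 IkB-like or deubiquitinase gene, 0 ligands or receptors and 4 targets, and DESeq2 called 1 target.

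**Figure D5:**
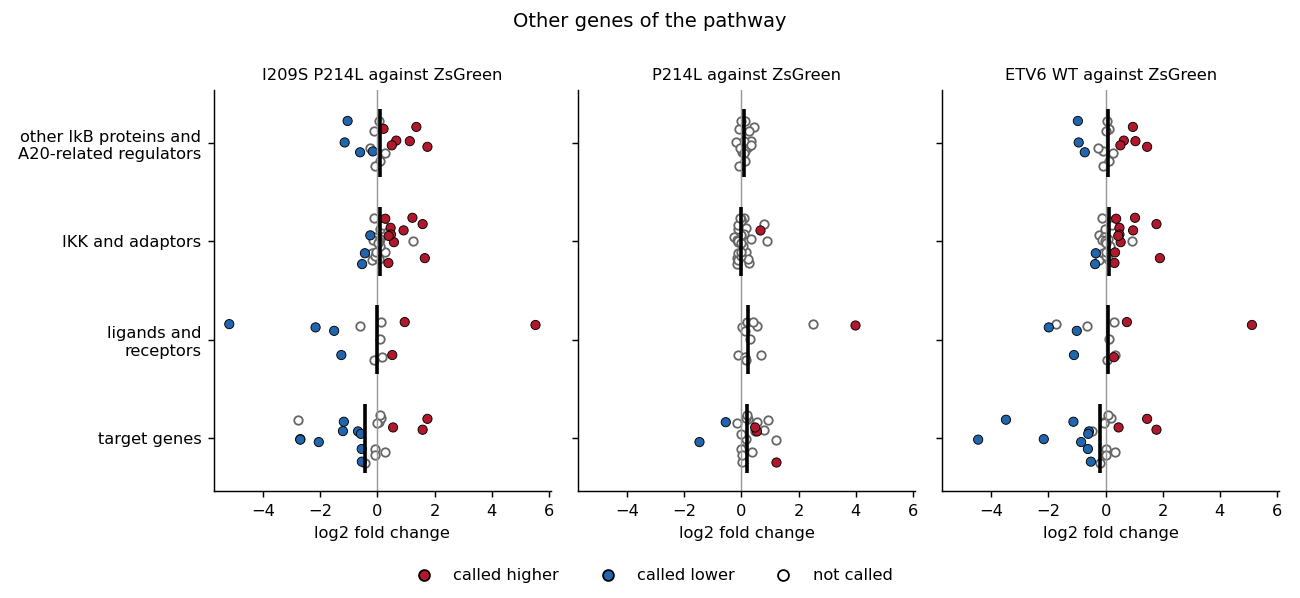
Log2 fold change against ZsGreen (horizontal axis) of each tested gene of 4 pathway lists (rows) for I209S P214L, P214L and ETV6 WT; filled points were called higher (red) or lower (blue) at an adjusted p under 0.05 and vertical bars are list medians. Called points are frequent in the outer panels and few in the P214L panel, and the target genes have a median of -0.42 in I209S P214L and -0.20 in ETV6 WT.

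Markers of other blood cell types also differed between the groups. Neutrophil and monocyte markers (11 of 15 tested, Ly6g and Ly6c2 without a count) summed to 99.99 to 145.8 CPM in I209S P214L, 195.1 to 274.8 in P214L, 136.9 to 158.9 in ETV6 WT and 78.7 to 91.9 in ZsGreen. By sum they were thus highest in P214L and lowest in ZsGreen. By gene, 1 was called higher and 8 lower in I209S P214L against ZsGreen, 7 higher and 0 lower in P214L against ZsGreen, and 1 higher and 8 lower in ETV6 WT against ZsGreen, with list medians of -3.23, 1.27 and -2.32 on the log2 scale. The direction of most single markers in I209S P214L and ETV6 WT was therefore opposite to that of the sums. In I209S P214L against P214L 1 was called higher and 9 lower. The shares of all tested genes called in these 4 comparisons were 41.5%, 5.08%, 37.7% and 33.0%. Mast cell and basophil markers (7 of 12 tested, Prss34 without a count) summed to 2449 to 2988 CPM in I209S P214L, 1739 to 1820 in P214L, 2389 to 3057 in ETV6 WT and 1791 to 1888 in ZsGreen. Gata2 alone, a gene of this list, averaged 2600 CPM in I209S P214L, 1750 in P214L, 2570 in ETV6 WT and 1830 in ZsGreen. The sums of this list therefore mostly follow Gata2. Erythroid markers (8 of 9 tested) summed to 320.3 to 447.5 CPM in I209S P214L, 129.5 to 184.6 in P214L, 311.3 to 406.8 in ETV6 WT and 157.1 to 166.1 in ZsGreen. By gene, both lists went both ways against ZsGreen. Of the mast cell and basophil markers, 4 were called higher and 1 lower in I209S P214L, and 4 and 2 in ETV6 WT. Of the erythroid markers, 3 were called higher and 2 lower in I209S P214L, and 4 and 2 in ETV6 WT. P214L against ZsGreen called 0 of either list. A set of broad blood and Ba/F3 markers, the IL-3 receptor chains among them (4 of 6 tested, Cd24a without a count), summed to 5319 to 5639 CPM in I209S P214L, 1797 to 1970 in P214L, 4995 to 5495 in ETV6 WT and 1083 to 1150 in ZsGreen. T lineage markers (1 of 8 tested, at most 4.16 CPM in sum) and fibroblast markers (none of 7 tested, at most 0.508 CPM) were near 0. The part of these cell-type programmes in the NF-kB results was not tested.

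For the called members other than Rel, the protein-coding genes with the most similar pattern over the 12 libraries were looked up among 9254 genes, by the root mean square difference of centred log2 CPM. Nfkbia was closest to Cdk1 (0.07), a cell-cycle kinase, and Scd2 (0.08), a fatty acid desaturase, where its own spread around its mean was 0.42 on the same scale. Rela was closest to Gata2 (0.07), a transcription factor that is also on the mast cell list, and to Impdh1 (0.08), an enzyme of guanine nucleotide synthesis, with a spread of its own of 0.28. Nfkb1 was closest to Rabl6 (0.06) and Ppib (0.06). Tnfaip3, the least abundant, had the loosest matches, Cflar (0.15), an inhibitor of death-receptor signalling on the target list, and Macir (0.17). Cflar averaged 61.0 CPM in I209S P214L, 93.0 in P214L, 58.0 in ETV6 WT and 89.1 in ZsGreen. The libraries share depth and scaling, so these are descriptions without a test.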

How the data were processed

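Messenger RNA of 12 Ba/F3 libraries was selected by poly-A tail, per the labels' protocols, which name directional as well as non-directional library types, so whether the counts use strand is unknown. HISAT2 2.0.5, featureCounts 1.5.0-p3 and build mm39 are named, per the submitters' processing notes; annotation release and strand setting are not given in the sources used here. The deposited table holds raw counts per gene, FPKM computed by the authors and, per the file headers, gene lengths in bases and gene positions. Of 56748 genes, 30009 had no count. The authors' own fold changes were not used.

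Counts were fitted in R 4.3.3 with edgeR 4.0.16: filterByExpr, TMM scaling, 1 mean for each of the 4 groups over all 12 libraries, and quasi-likelihood tests of 6 comparisons and of any difference. Benjamini-Hochberg adjustment ran over the 14794 genes tested, with calls at 0.05. The 95% intervals use the t distribution of the fit. CPM are TMM-scaled; log2 CPM use a prior count of 2. Depth of 14301683 to 18607595 counts limits low genes; the reads carry no molecular identifiers, so counting intervals and the floor of 3 counts cover counting error only. On simulated counts for ETV6 WT against ZsGreen, 174 of 200 genes changed 2-fold were recovered among 13833 genes. The changed genes were drawn from those with an average log2 CPM above 2. All members changed by less than 2-fold, so this share does not give the chance of calling them. Alternatives were other scaling, filters, DESeq2 1.42.0, limma-voom (limma 3.58.1), a replicate block, fits of the compared groups alone and libraries left out.

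Members, 4 pathway lists and 7 marker lists were chosen with earlier results of these data known. Named were all members, up to 4 genes of each pathway list with the smallest adjusted p of any difference, Etv6, and for each member called in that test the 2 protein-coding genes with a mean CPM of at least 5 and the nearest pattern; those of Rel are not reported here.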

Additional observations from a re-analysis of the deposited data

How the results depend on the processing

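Over 1134 pairs of a member's fold change and an alternative, 1094 kept direction and side of the threshold, 13 lost and 8 gained the call, and 19 changed sign. The number of members called stayed within 1.5 times the value reported under every alternative. Leaving out 1 library gave 5 to 6 members in I209S P214L against ZsGreen, 0 in P214L against ZsGreen, 4 to 6 in ETV6 WT against ZsGreen, 5 to 6 in I209S P214L against P214L, 0 in I209S P214L against ETV6 WT and 4 to 5 in P214L against ETV6 WT. Over all genes, P214L against ZsGreen called 751, and 1188 with DESeq2, 1224 without the first libraries of both ETV6 WT and I209S P214L, and 369 to 960 without 1 library. I209S P214L against ETV6 WT called 5, and 38 with no low-count filter, 23 with DESeq2, 3 with limma-voom, 3 with those groups alone, and 1 to 6 without 1 library; the cause was not tested.

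All sign changes were in comparisons in which the member was not called. Without 1 library, P214L against ZsGreen ranged from -0.19 to 0.082 for Relb, -0.059 to 0.055 for Nfkbia (-0.015 without ZsGreen 2), -0.055 to 0.0015 for Nfkbie and -0.025 to 0.28 for Tnfaip3 (-0.018 without P214L 3). I209S P214L against ETV6 WT ranged from -0.0097 to 0.10 for Nfkb1, -0.069 to 0.18 for Nfkb2 (-0.0071 without ETV6 WT 3, -0.041 without I209S P214L 1), -0.055 to 0.16 for Rela (-0.039 without ETV6 WT 3), -0.055 to 0.14 for Relb (-0.070 without both first libraries) and -0.13 to 0.016 for Nfkbib. Nfkbie ranged from -0.13 to 0.16 in I209S P214L against ZsGreen and from -0.10 to 0.19 in I209S P214L against P214L. Fits left with 2 libraries in a group assume that they vary like the other groups.

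The main fit did not pair libraries by replicate number. Deviations of same-numbered libraries correlated between -0.061 and 0.528, and not every library was closest to its own number. The highest values were 0.528 for ETV6 WT 1 with I209S P214L 1 and 0.254 for ETV6 WT 3 with I209S P214L 3. For ETV6 WT 2 with I209S P214L 2 it was 0.0786, and same-numbered pairs with P214L ran from -0.061 to 0.0541. Whether the numbers mark shared handling was not tested. With the replicate block, members called were 6, 0 and 5 against ZsGreen in I209S P214L, P214L and ETV6 WT, 5 in I209S P214L against P214L, 0 in I209S P214L against ETV6 WT and 5 in P214L against ETV6 WT, as without it; genes called were 6357, 881, 5790, 5102, 4 and 4522 in the same order. Other scalings moved the median of all genes by at most 0.034 log2. Depth limits Bcl3, with 2 counts in all, and Tnfaip3, with 125 to 266 counts in each library.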
